A study of Mus musculus with 8 samples.

Results

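The activin and inhibin system was examined in mouse liver as 10 genes of the deposited count table of 25239: the subunit genes Inha, Inhba, Inhbb, Inhbc and Inhbe, the antagonist genes Fst and Fstl3, and the receptor genes Acvr2a, Acvr2b and Acvr1c. They were chosen by name, with earlier results of these data known, and all 10 passed the filter on low counts. The 8 libraries came from livers of adult male mice. There were 2 groups. The control group (n = 4) carried loxP-flanked Zfp36l1 alleles (fl/fl) and has WT in its genotype label, and the knockout group (n = 4) carried the same fl/fl alleles with Alb-Cre, a Cre recombinase driven by the albumin promoter of hepatocytes. Cre is named for the knockout libraries only, so the deletion and the Cre transgene cannot be told apart. Endothelial cells, stellate cells and macrophages do not use this promoter and contribute RNA to the same libraries. The labels do not say that each library is a separate mouse, so the p-values reflect spread from library to library, which may be technical, and exact ages are not given in the labels.

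Activins are secreted dimers of beta subunits and belong to the TGF-beta family, while inhibins pair a beta subunit with the alpha subunit encoded by Inha and oppose activin. An activin binds a type II receptor, ACVR2A or ACVR2B, which recruits a type I receptor such as ACVR1B (ALK4) or ACVR1C (ALK7), and the pair phosphorylates SMAD2 and SMAD3. Follistatin and follistatin-like 3 bind activins outside the cell and keep them from their receptors. In liver the subunit genes Inhbc and Inhbe are typical of hepatocytes, activin A (an INHBA dimer) is known to restrain hepatocyte growth, and activin E from the liver is known to act on ACVR1C of fat cells. ZFP36L1, the protein deleted here, binds AU-rich stretches in mRNA 3′ UTRs (untranslated regions), with UAUUUAU as a core, and speeds their decay.

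The core was searched in the longest annotated 3′ UTR of each gene, on the mRNA strand only, in GENCODE M21 transcripts (GRCm38). At least 1 match was present in 6 of the 10 genes, against 29.6% of 13716 tested genes with an annotated 3′ UTR. UTR length was not matched here, with a median of 1524 bases for the 10 genes and 1328 for the tested genes. Of tested genes with a UTR length near that of each member, 5.83% (for Inha) to 71.6% (for Acvr1c) had a match. Inhba held the most, with 5 matches in 4492 bases, where 58.8% of 1137 tested genes with a 3′ UTR of similar length (0.8 to 1.2 times) had any and their median was 1. Fst held 4 in 1514 bases, where 30.7% of 2179 genes of similar length had any. The matches of these 2 genes, similar in number, are shown because Inhba alone of the 10 passed the test, while its antagonist gene Fst did not. The estimated change of Fst, given below, was a little larger than that of Inhba and far less certain. Whether the matches bear on the level of either gene was not tested. Each line gives the core in capitals with up to 9 bases on either side, 5′ to 3′, in DNA letters.
Inhba, 1921 bases after the stop codon: ttcaacttaTATTTATtatttattg
Inhba, 1928 bases after the stop codon: tatatttatTATTTATtggaatcaa
Inhba, 3912 bases after the stop codon: ctatattatTATTTATttttatgca
Inhba, 4244 bases after the stop codon: gtttcttaaTATTTATtttgtagaa
Inhba, 4337 bases after the stop codon: agcagaagtTATTTATttctattcc
Fst, 537 bases after the stop codon: gtgtatgctTATTTATttgggggga
Fst, 679 bases after the stop codon: gtagacattTATTTATactgtgtca
Fst, 782 bases after the stop codon: agcagttgtTATTTATtgtgaggtc
Fst, 952 bases after the stop codon: tgtcatgttTATTTATtggattctc

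The first pair of Inhba matches is adjacent, and the other 3 lie in the last part of the UTR. Acvr1c had 3 matches in 7465 bases, Inhbe 2 in 1400, and Fstl3 and Acvr2a had 1 each. Inha, Inhbb, Inhbc and Acvr2b had none. The annotated Acvr2b transcript that was searched is 3175 bases long where the deposited gene length is 10666, so much of that gene was not searched, and the annotated Inhbe transcript (5319 bases) is longer than the deposited length of 2211. A match is a string of letters and not a measured binding site.

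**Figure D1:**
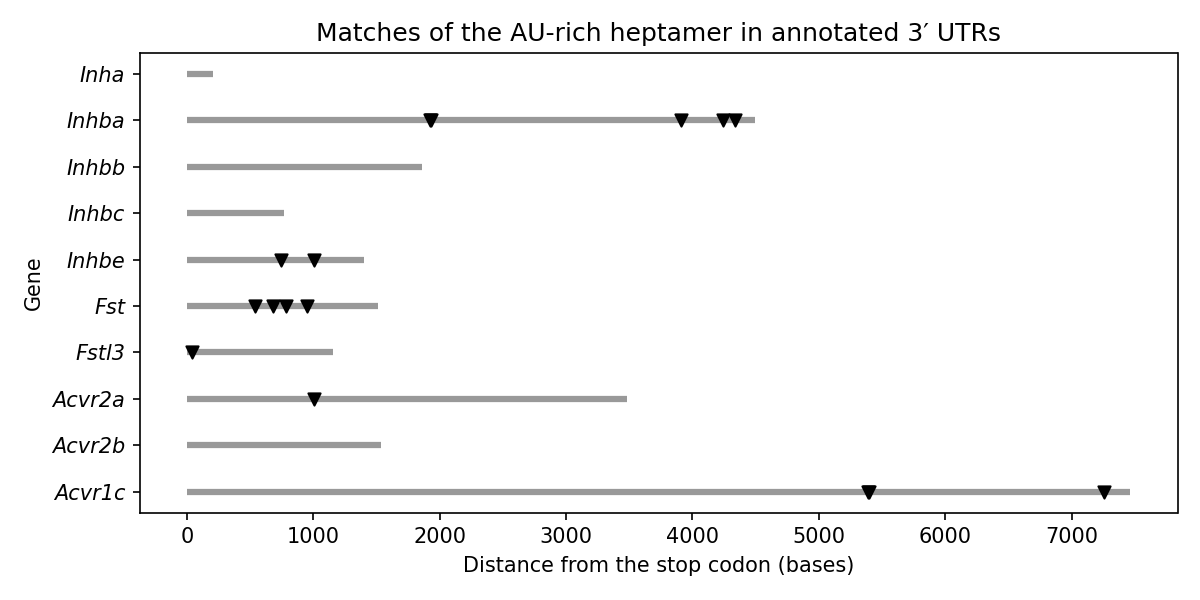
Annotated 3′ UTR of each of the 10 genes (grey bar, length in bases from the stop codon on the x axis) with the matches of UAUUUAU (triangles). Inhba has 5 matches and Fst 4, the first pair of Inhba and of Acvr1c overlapping at this scale, and 4 genes have none.

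Total gene counts were 104842873 to 140582588 per library. Zfp36l1 itself had 212 to 324 CPM (TMM-normalised counts scaled to library size) in the control and 57.9 to 76.9 CPM in the knockout libraries, a log2 fold change of −1.99 (SE 0.14, adjusted p = 0.000309). Its two-sided exact permutation p was 0.0286, the smallest value possible with these groups. Over all genes, 801 of 14861 tested (5.39%) passed an adjusted p of 0.05, and 521 (3.51%) were higher in the knockout. Unless another tool is named, adjusted p-values come from the quasi-likelihood F-test of edgeR, corrected by Benjamini-Hochberg over those 14861 genes. A positive log2 fold change means higher in the knockout, and SE is its standard error. Summed CPM of the hepatocyte markers (8 of 8 tested, 0 called) was 76635 to 83970 in the control libraries, below the 91030 to 101775 of the knockout libraries, and its part in the results was not tested. Alb made up most of that sum (54749 to 62345, then 68173 to 75945), while 4 of the 8 members had a log2 fold change below 0 (Apoa1, Serpina1a, Cps1 and Hnf4a) and the list's median was −0.01. Sums of the stellate (327 to 466, then 381 to 561), endothelial (235 to 336, then 235 to 336) and Kupffer cell markers (149 to 207, then 117 to 332) overlapped between control and knockout, with 0 members called in each list. Log2 fold changes were above 0 for 4 of 10 stellate (median −0.03), 8 of 8 endothelial (0.13) and 8 of 8 Kupffer cell markers (0.18). Among these markers only the endothelial Lyve1 had groups that did not overlap (log2 fold change 0.72, adjusted p = 0.0549). The part of these cells in the results was not tested. Of the bile duct markers 1 of 6 tested, Sox9, was lower (log2 fold change −1.18, adjusted p = 0.0242), beside 280 of all 14861 tested genes. A log2 fold change above 0 was seen for 3 of the 6, and the list's median was −0.07. Sums of the bile duct markers overlapped (42.2 to 57.0, then 30.4 to 44.9). Among the markers of adipocytes, lymphocytes, neutrophils and mesothelium 0 were called. Neutrophil sums varied widely, with 70.3 and 28.6 CPM in knockout libraries 1 and 4. They were 0.236 and 0.246 CPM in knockout libraries 2 and 3, and 0.179 to 9.89 CPM in control libraries. In bulk RNA, fewer cells of a type and less RNA per cell cannot be told apart.

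Levels of different genes were compared as CPM per kilobase of the deposited gene length. Inhbc (chromosome 10, 127356322 to 127370431, minus strand, GRCm38) was the highest of the 10, with 41.2 to 58.5 over the 8 libraries, above 92.3% of tested genes by its mean. Inhbe, its neighbour on the same strand 1910 bases away (127348857 to 127354411), came next with 16.1 to 33.4. These genes did not overlap in level with each other or with the genes that follow. Acvr2a (4.99 to 6.25), Fst (1.69 to 9.11) and Inhba (3.01 to 5.45) formed a middle group whose ranges overlapped: Acvr2a was above Fst in 5 of 8 libraries and Fst above Inhba in 5 of 8. Acvr2b (0.732 to 1.03) and Inhbb (0.229 to 0.584) were lower and separate from their neighbours in the order. Inha (0.044 to 0.101), Fstl3 (0.0282 to 0.0691) and Acvr1c (0.00347 to 0.0332) were at the bottom. The range of Fstl3 overlapped that of Inha and that of Acvr1c, while Inha and Acvr1c did not overlap. Fstl3 was above Acvr1c in 8 of 8 libraries. Only 0.464% of tested genes had a lower mean level than Acvr1c.

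**Figure D2:**
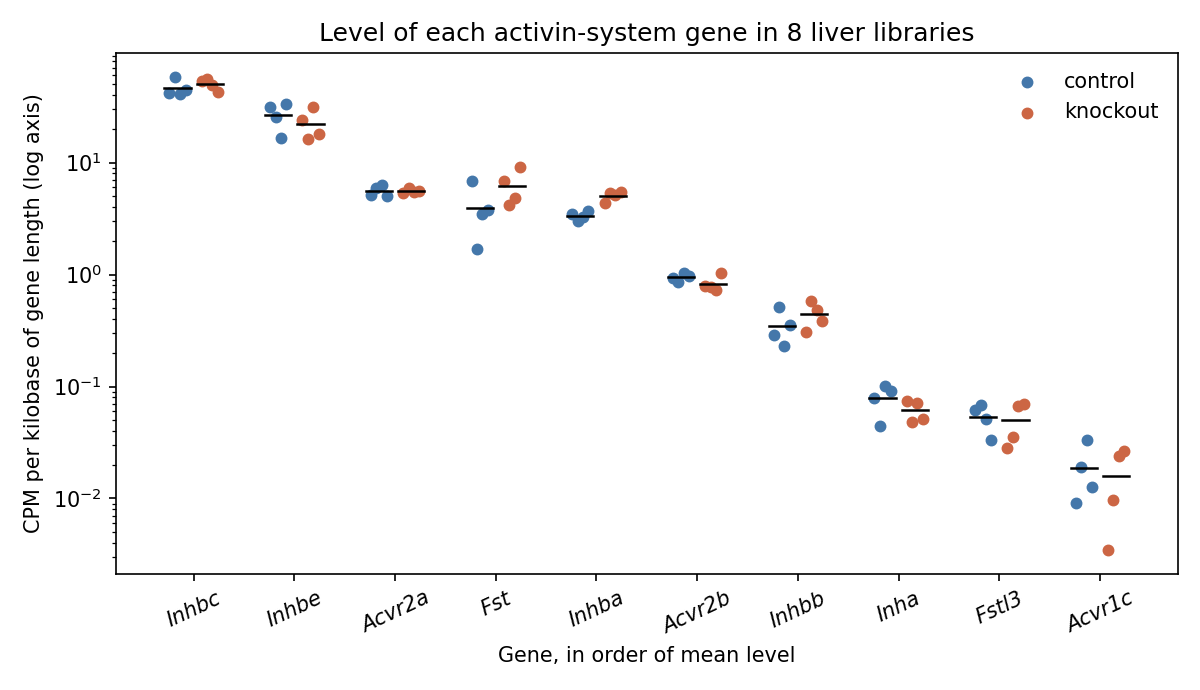
Level of each gene in CPM per kilobase of gene length (log axis) in the control (blue) and knockout (orange) libraries, with bars at the group means, n = 4 per group. Inhbc lies at 41.2 to 58.5 and Acvr1c at 0.00347 to 0.0332, and the groups are apart for Inhba alone.

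Among the 10 genes, 1 was higher in the knockout livers and 0 were lower, beside 5.39% of all tested genes changed in either direction. The gene that changed was Inhba, which encodes the subunit of activin A. Groups of libraries did not overlap for that same gene only, where 15.1% of all tested genes had groups that did not overlap. At an unadjusted p under 0.05 the counts were the same, 1 higher and 0 lower, and DESeq2 called 1 higher and 0 lower as well. The median log2 fold change of the 10 genes was −0.05, against −0.01 for all tested genes.

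Inhba (ENSMUSG00000041324.14, chromosome 13, 16011851 to 16031621, plus strand) had 22.2, 19.2, 20.7 and 23.7 CPM in control libraries 1 to 4. In knockout libraries 1 to 4 it had 27.9, 33.9, 32.9 and 34.8 CPM. All knockout libraries lay above all control libraries, with knockout library 1 the closest to them. The means were 21.5 ± 1.95 and 32.4 ± 3.08 CPM (SD, n = 4), an increase of 50.8% (log2 fold change 0.59, SE 0.09, adjusted p = 0.01). By p-value it stood 117th, and by size of change 252nd, among the 521 genes that rose. The call held under every one of 16 alternatives, with log2 fold changes of 0.48 to 0.66 and adjusted p up to 0.04, the last without knockout replicate 3. The pseudogene B230303A05Rik lies within Inhba on the opposite strand and had 0 to 6 counts per library, against 2406 to 4633 for Inhba. The annotation has a further antisense gene there, Gm48444 (6240 bases of overlap), with no row in the table, and its reads cannot be told apart from those of Inhba.

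The other beta subunit genes did not pass the test. Inhbb, the subunit of activin B, which is known to raise hepcidin expression in liver, had 1.24, 2.19, 0.974 and 1.5 CPM in control libraries 1 to 4. Knockout libraries 1 to 4 had 1.31, 2.49, 2.05 and 1.64 CPM. The groups overlapped, and library 2 was the highest in both (log2 fold change 0.34, SE 0.28, adjusted p = 0.518). Each knockout library lay above the control of its number, in 4 of 4 pairs, and with the replicate block the log2 fold change was 0.37 (adjusted p = 0.305). An approximate 95% interval for the change ran from −0.34 to 1.03 on the log2 scale, so a change as large as that of Inhba was within it.

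Inhbc, the subunit of activin C, had 82.0, 115.6, 81.5 and 88.1 CPM in the control group. In the knockout group it had 106.4, 109.7, 97.6 and 84.5 CPM. Control library 2 was the highest of the 8, and the groups overlapped (log2 fold change 0.12, SE 0.13, adjusted p = 0.634, approximate 95% interval −0.19 to 0.43). The upper end of that interval is below the measured change of Inhba, although the difference between the genes was not tested.

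Inhbe, the subunit of activin E, had 69.1, 56.5, 36.6 and 73.8 CPM in the control libraries. In the knockout libraries it had 52.8, 35.7, 68.8 and 40.2 CPM. Both groups spanned nearly the same range, and this gene varied more between libraries of a group than Inhba or Inhbc (SD 16.6 around a mean of 59.0 in control and 14.8 around 49.4 in knockout). The difference in log2 terms was −0.26 (SE 0.26, adjusted p = 0.614, approximate 95% interval −0.90 to 0.38). The antisense gene Gm47200 of the annotation spans both Inhbc and Inhbe and has no row in the table, and without a stated strand setting its reads cannot be told apart from theirs.

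Per kilobase, Inhbc and Inhbe together made up 94.3% to 96.0% of the summed beta subunit level in control livers and 91.3% to 94.3% in knockout livers. Inhba made up 3.43% to 5.30% in control livers and 5.30% to 8.16% in knockout livers. The sum of the 4 beta subunit genes was 76.9 ± 11.3 in control and 78.2 ± 8.41 CPM per kilobase in knockout livers (SD, n = 4). The summed level differed between the groups by less than the spread between libraries. Inhbe stood at 0.401 to 0.753 times the level of Inhbc in control and at 0.291 to 0.63 times in knockout libraries.

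Inha, the alpha subunit gene that turns a beta subunit into an inhibin, had 20, 13, 33 and 26 counts in the control libraries and 22, 13, 23 and 16 in the knockout libraries. These counts were low and overlapped between the groups (log2 fold change −0.36, SE 0.34, adjusted p = 0.574). Per kilobase, Inha was at 0.0502% to 0.165% of the summed beta subunit level.

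**Figure D3:**
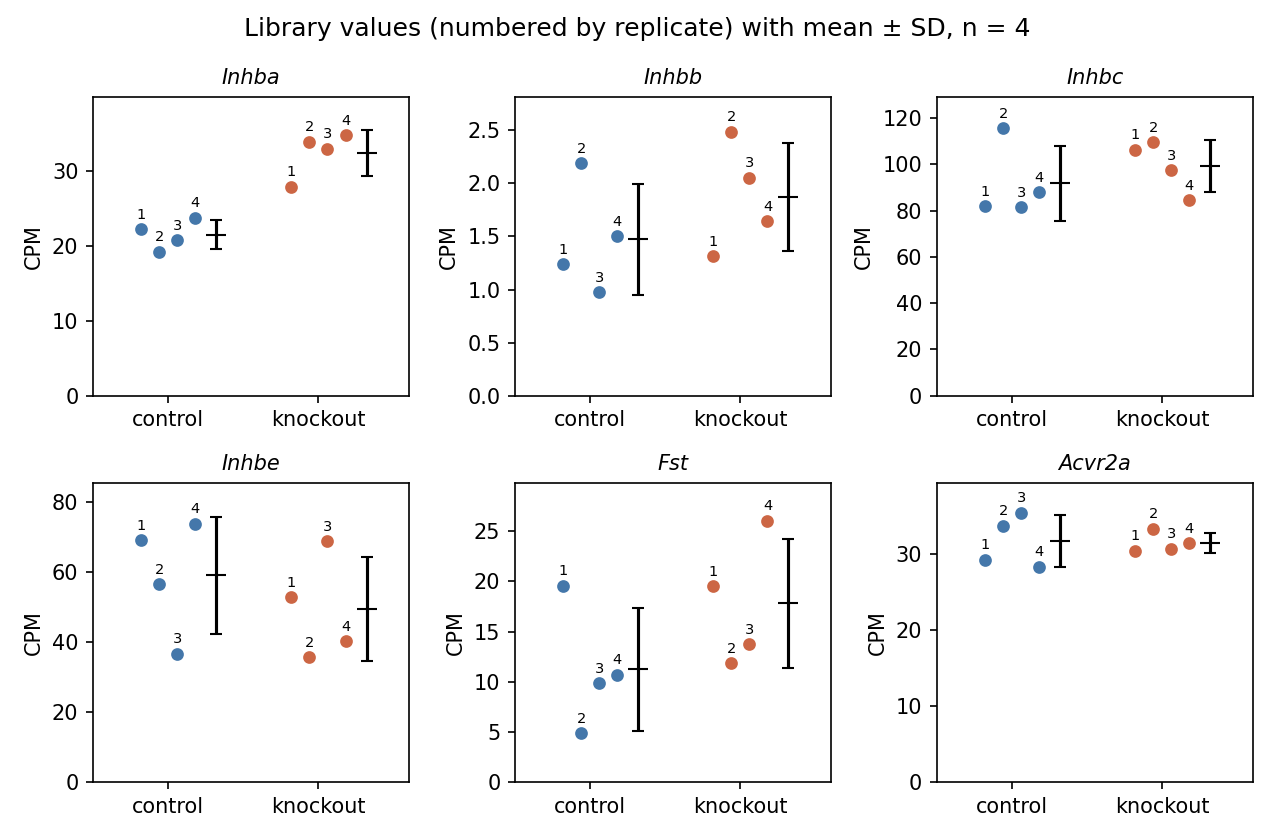
CPM of 6 of the genes in each library, numbered by replicate, with the mean ± SD at the side of each group (n = 4) and axes from 0. The Inhba groups are apart at 19.2 to 23.7 and 27.9 to 34.8 CPM, and the groups of the other 5 genes overlap.

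Of the antagonists, Fst was the only one at an appreciable level. It had 19.6, 4.85, 9.85 and 10.7 CPM in control libraries 1 to 4. In knockout libraries 1 to 4 it had 19.5, 11.9, 13.8 and 26.1 CPM. Control library 1 reached the level of the knockout libraries and control library 2 lay far below, so the groups overlapped. The log2 fold change of 0.67 was a little larger than that of Inhba, but its SE was 0.42 and the adjusted p = 0.411. The approximate 95% interval, −0.37 to 1.70, held both no change and a rise larger than that of Inhba, and leaving out control library 1 moved the log2 fold change to 1.08, while leaving out control library 2 or knockout library 4 moved it to 0.42. The Inhba level per kilobase was 0.509 to 1.78 times that of Fst in control and 0.598 to 1.28 times in knockout libraries. These ratios overlapped between the groups.

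Fstl3 had 13, 17, 14 and 8 counts in control and 7, 8, 18 and 18 in knockout libraries (log2 fold change −0.10, SE 0.40, adjusted p = 0.913). The groups overlapped. Fstl3 overlaps Prss57 on the opposite strand, which had 0 to 10 counts.

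Neither type II receptor gene passed the test. Acvr2a had 29.3, 33.8, 35.5 and 28.4 CPM in control and 30.5, 33.4, 30.8 and 31.5 CPM in knockout libraries. The knockout values lay inside the control range (log2 fold change −0.01, SE 0.08, adjusted p = 0.962), and with an approximate 95% interval of −0.22 to 0.20 a change as large as that of Inhba was outside it. Acvr2a overlaps 446 bases of Orc4 on the opposite strand, and Orc4 had adjusted p = 0.323.

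Acvr2b had 9.93, 9.18, 11.0 and 10.3 CPM in control and 8.34, 8.33, 7.80 and 10.9 CPM in knockout libraries. The first 3 knockout libraries lay below all controls and knockout library 4 among them (log2 fold change −0.19, SE 0.12, adjusted p = 0.375). Per kilobase, Acvr2a was 5.15 to 6.91 times as high as Acvr2b in control and 5.42 to 7.53 times in knockout libraries.

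Acvr1c, the type I receptor ALK7 through which activin E acts on fat cells, had 9, 22, 42 and 14 counts in control and 4, 10, 30 and 32 in knockout libraries. A floor of 3 counts equals 0.0215 to 0.0277 CPM in these libraries, counting error only, and the lowest Acvr1c value was 0.0314 CPM. The knockout group differed by −0.23 in log2 terms (SE 0.60, adjusted p = 0.859), with an approximate 95% interval of −1.69 to 1.23. Of the 8 adipocyte markers, Lep had 0 counts in all 8 libraries, Plin1 0 to 2, Adipoq 0 to 6 and Retn 0 to 8, and these 4 were not tested. The other 4 were detected, namely Cfd (23 to 338 counts), Plin4 (706 to 3771), Adrb3 (856 to 3074) and Car3 (277910 to 502754), and 0 of them were called. Adrb3 was at 7.90 to 13.2 CPM in control and, without overlap, 14.4 to 22.2 CPM in knockout livers (adjusted p = 0.0719). The summed CPM of the 8 markers, nearly all of it Car3, was 2694 to 4001 in control and 2107 to 3665 in knockout livers, and the part of such cells in the Acvr1c values was not tested.

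**Figure D4:**
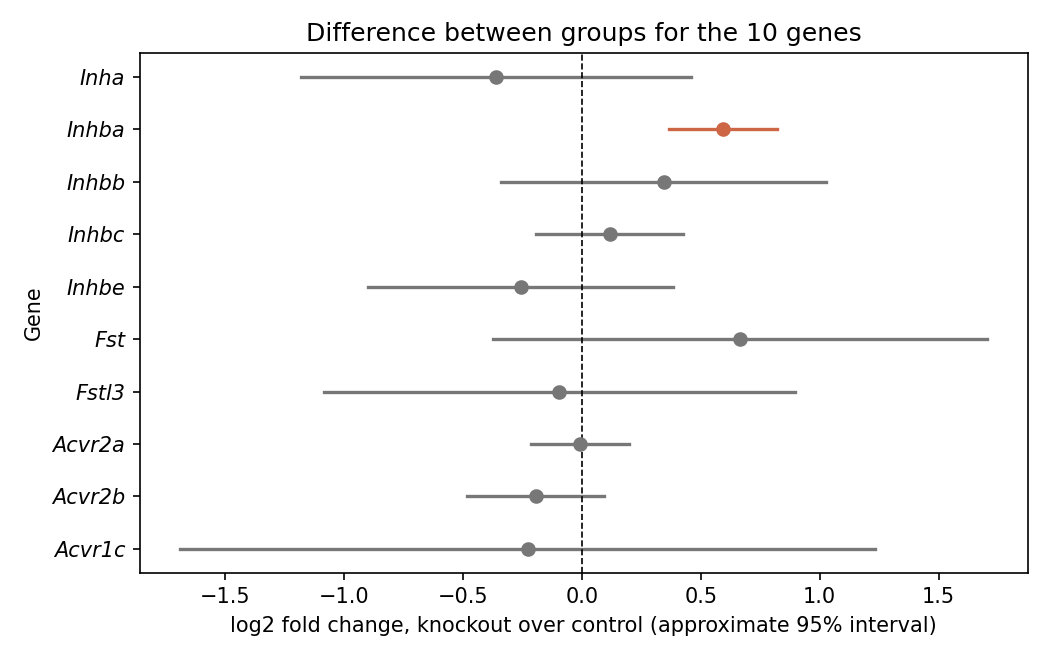
Log2 fold change of each gene, knockout over control (points), with approximate 95% intervals (lines, from the SE and 6 degrees of freedom). Inhba at 0.59 is the gene past the threshold (orange), and the intervals of the other 9 include 0.

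The other genes of the pathway were read from 10 lists holding 137 genes outside the 10. The lists were chosen with earlier results of these data known, so their counts beside the share of all genes are no test. Of 116 tested, 13 rose and 0 fell, with a median log2 fold change of 0.08, beside 3.51% of all tested genes that rose. At an unadjusted p under 0.05, 1 of them was lower. The number that rose depended on single libraries: it was 5 when control library 1 was left out, 8 for control library 2, 5 for knockout library 1, 8 for knockout library 2 and 3 for knockout library 3. Of the 13, 10 were in the stress, hormone and lipolysis lists, and the other 3 were Bmp7, Bmp8b and Smurf1.

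Type I receptors and coreceptors of activin showed 0 of 6 tested members changed (median −0.15), beside 5.39% of all tested genes. Acvr1b, the main type I receptor gene for activin A, had 21 ± 2.22 and 18.6 ± 2.98 CPM (SD, n = 4; adjusted p = 0.458). Tdgf1, which encodes the coreceptor Cripto, was not tested at a mean of 0.00462 CPM in control and 0 in knockout livers. The lowest adjusted p-values of this list were 0.267 for the decoy receptor gene Bambi (log2 fold change −0.38) and 0.331 for Igsf1 (−0.61). Eng, which encodes endoglin, was the highest of this list per kilobase (adjusted p = 0.554). Of 6 other tested receptor genes of the family 0 changed, beside the same 5.39% of all tested genes. The TGF-beta receptor gene Tgfbr2, the highest of them per kilobase, had 44.0 ± 11.0 and 59.2 ± 6.19 CPM (SD, n = 4; log2 fold change 0.43, SE 0.16, adjusted p = 0.164), and it passed with the replicate block (adjusted p = 0.0321) and without control library 4 (adjusted p = 0.0329). Bmpr1a, a bone morphogenetic protein (BMP) receptor gene, had −0.14 (adjusted p = 0.355).

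Among 18 other tested ligand genes 2 rose and 0 fell (median 0.16), beside 3.51% of all tested genes that rose. Bmp7, a BMP ligand gene, had 3.04, 3.00, 2.04 and 3.82 CPM in control and 4.92, 6.25, 6.26 and 7.03 CPM in knockout libraries. The groups did not overlap (log2 fold change 1.04, SE 0.19, adjusted p = 0.0178), and the call was lost without control library 1 (adjusted p = 0.0554) or knockout library 3 (adjusted p = 0.0562). Bmp8b rose from a very low level, 0.0773 ± 0.0265 to 0.33 ± 0.128 CPM (SD, n = 4; log2 fold change 2.09, SE 0.42, adjusted p = 0.0236). That call was lost without any 1 of control libraries 1 and 2 and knockout libraries 1, 2 and 3 (adjusted p = 0.0504 to 0.0698). Bmp8b overlaps Oxct2b on the same strand and Ppie on the opposite strand. Gdf2, the gene of BMP9 and the highest ligand gene of this list per kilobase, had adjusted p = 0.599.

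Of 13 other tested genes of secreted antagonists and ligand-binding proteins, 0 changed (median 0.08), beside 5.39% of all tested genes. The lowest adjusted p-values were 0.256 for Ltbp2, which encodes a latent TGF-beta binding protein (log2 fold change 0.52), and 0.346 for Chrd, the gene of the BMP antagonist chordin (−0.20). Decorin (Dcn), the highest of this list per kilobase, had adjusted p = 0.92. Furin, whose protease cleaves activin precursors, had 365 ± 24.3 and 405 ± 15.0 CPM (SD, n = 4; adjusted p = 0.252). Of the 4 proprotein convertase genes tested 0 changed, beside 5.39% of all tested genes, and Pcsk5 had adjusted p = 0.469.

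Of 17 tested SMAD genes and regulators, 1 rose and 0 fell (median −0.05), beside 3.51% of all tested genes that rose. Smurf1, a ubiquitin ligase gene that marks SMADs and receptors for removal, had 36.2, 30.0, 35.5 and 36.3 CPM in control and 45.0, 40.8, 46.2 and 46.1 CPM in knockout libraries. The groups did not overlap (log2 fold change 0.37, SE 0.08, adjusted p = 0.0304), and the call was lost without any 1 of control libraries 1 and 2 and knockout libraries 1, 3 and 4, and when scaled by total counts alone (adjusted p = 0.0557 to 0.0908). Smad2 (log2 fold change −0.11, adjusted p = 0.403) and Smad3 (−0.23, adjusted p = 0.416), the mediators of activin signals, did not pass. The phosphatase gene Ppm1a was the highest of this list per kilobase (adjusted p = 0.228).

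Response genes of SMAD2/3 and SMAD1/5 gave 0 of 15 changed (median −0.01), beside 5.39% of all tested genes changed in either direction. Hamp2, a hepcidin gene, came closest, with 8.85, 4.48, 6.11 and 2.98 CPM in control and 17.3, 15.5, 17.7 and 8.22 CPM in knockout libraries. Knockout library 4 lay below control library 1 (log2 fold change 1.39, SE 0.36, adjusted p = 0.0629), while each knockout library lay above the control of its number. It passed in 6 of 16 alternatives: with the replicate block (adjusted p = 0.00222), DESeq2 (0.000276), limma with quality weights (0.043) or the filter of 1 CPM in 4 libraries (0.0486), and without control library 1 (0.048) or knockout library 4 (0.0394). In the other 10 the adjusted p was 0.0548 to 0.152. Its close paralog Hamp, the highest of the list per kilobase, had 207 ± 53.7 and 163 ± 104 CPM (SD, n = 4; adjusted p = 0.669), and reads of such paralogs may be split by the counting. Smad7, the inhibitory SMAD gene, had adjusted p = 0.797.

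Genes of the ATF4 and CHOP stress pathway, which is known to act on Inhbe, were read beside it. Beside 3.51% of all tested genes that rose, 3 of 17 tested in this list rose and 0 fell (median 0.35). They were Fgf21 (log2 fold change 2.43, adjusted p = 0.0335), Atf5 (0.48, adjusted p = 0.0403), which was also the highest of the list per kilobase, and Atf3 (1.5, adjusted p = 0.05, just inside the threshold). The call of Fgf21 was lost without any 1 library other than control 3 and knockout 4 (adjusted p up to 0.0888), that of Atf5 without any 1 other than knockout 4 (up to 0.107), and that of Atf3 without any 1 of the 8 (up to 0.121). Over all 16 alternatives the call was lost in 7 for Fgf21, 8 for Atf5 and 10 for Atf3. The list had 2 genes higher with total counts alone or limma, 1 with no filter on low counts and 4 with DESeq2. A log2 fold change above 0 was seen for 14 of the 17 tested. Ddit3, the gene of CHOP, was at −0.16 (adjusted p = 0.856). Atf4 itself had 79.6 ± 7.55 and 80.7 ± 4.07 CPM (SD, n = 4; adjusted p = 0.91), and Inhbe was lower in mean in the same knockout libraries without passing.

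Of 20 other genes for hormones and carriers secreted by hepatocytes, 4 rose and 0 fell (median 0.08), beside 3.51% of all tested genes that rose. Igfbp1, which binds insulin-like growth factors, rose by 2.08 on the log2 scale (adjusted p = 0.0106, or 0.0544 with the replicate block). The retinol carrier gene Rbp4 rose by 0.55 (adjusted p = 0.0156) and the selenium carrier gene Selenop by 0.42 (adjusted p = 0.017), and Fgf21 was the other one. Without knockout library 3 the adjusted p was 0.0545 for Rbp4 and 0.0596 for Selenop, and for Selenop it was 0.0501 without control library 1 and 0.0577 without knockout library 1. The abundant Ahsg (fetuin-A), the highest of this list per kilobase, had adjusted p = 0.513.

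The last list held lipolysis and adipocyte genes, which signals through ACVR1C restrain in fat. Here 4 of 7 tested rose and 0 fell (median 0.52), beside 3.51% of all tested genes that rose. This list too was chosen with earlier results of these data known. Abhd5, a lipase coactivator gene, had 41.5, 38.0, 36.2 and 42.9 CPM in control and 62.7, 52.6, 53.1 and 58.5 CPM in knockout libraries. The groups were well apart (log2 fold change 0.52, SE 0.08, adjusted p = 0.0108), and the call held in all 16 alternatives. Mgll, the monoglyceride lipase gene, rose by 0.79 (adjusted p = 0.0172), Pparg by 0.88 (adjusted p = 0.0178) and the triglyceride lipase gene Pnpla2 by 0.51 (adjusted p = 0.0228). The call was lost for Mgll without knockout library 1 or 3 (adjusted p = 0.0503 and 0.0576), for Pparg without control library 1 (adjusted p = 0.0592), and for Pnpla2 without control library 1 or knockout library 1, 2 or 3 (adjusted p = 0.058 to 0.0695). Cebpa, the highest of the list per kilobase, had adjusted p = 0.263. These values are from liver, where Acvr1c was at 4 to 42 counts per library, and whether the lipase genes moved with any activin was not tested.

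**Figure D5:**
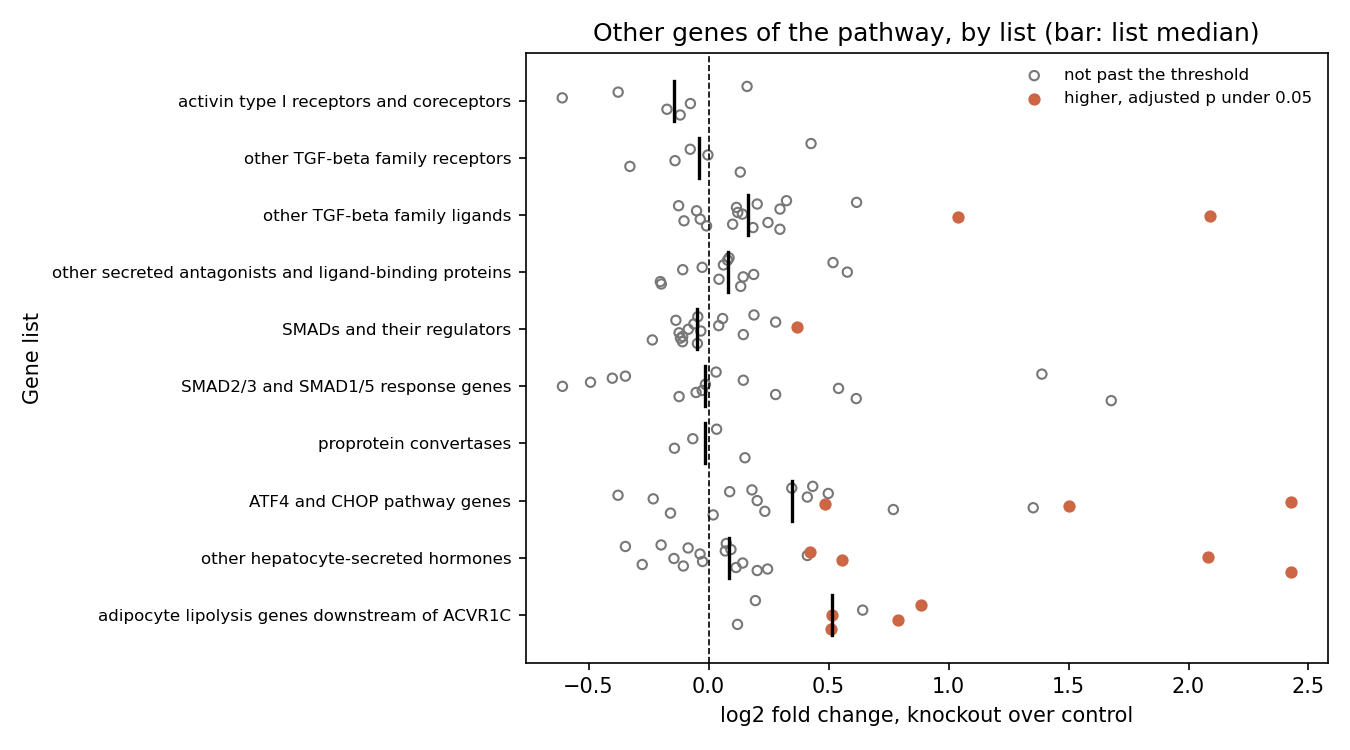
Log2 fold change, knockout over control, of each tested gene in the 10 lists of other pathway genes, with list medians (bars) and genes at adjusted p under 0.05 filled. Filled points are at most 2 in the 7 receptor, ligand, antagonist, SMAD, response and convertase lists, and 3 or 4 in each of the stress, hormone and lipolysis lists.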

How the data were processed

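Raw counts per gene symbol were taken from 1 table that the authors deposited, whose 8 library columns were matched to samples by the identifier in the labels. A gene length column is in bases, per the file headers. The build was mm10, per the submitters' processing notes, and the sources used here do not give the aligner, counter, annotation or strand setting. Of counts from 1 to 20, 67.4% to 70.8% per library were even, and halved counts were therefore tried.

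Genes passing filterByExpr were scaled by TMM and tested across all genes with edgeR 4.0.16 (robust glmQLFit, glmQLFTest; R 4.3.3) at a Benjamini-Hochberg adjusted p of 0.05, with group as the only term. This step was also run on simulated data with independent libraries and planted changes larger than that of Inhba. That run does not cover a pairing of libraries or changes as small as that of Inhba. SEs (fold change over the root of F) and 95% intervals (6 degrees of freedom) are approximate. The permutation test used log2(CPM + 1). Alternatives were DESeq2 1.42.0, limma 3.58.1, other scalings and filters, each library left out, and the replicate number as a block. After group means were subtracted, same-numbered libraries correlated at 0.165, 0.387, 0.306 and 0.402, all over 0.1, a pairing seen in the data and not stated in the labels.

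Genes named are the 10, Zfp36l1 and, from each list, those called (at most the 5 with the lowest adjusted p, or the 2 lowest where none was called) and the one highest per kilobase. One gene that this rule names is not reported here. Acvr1b, Tdgf1, Smad2, Smad3, Smad7, Atf4, Ddit3, the marker genes and the opposite-strand partners were added after their values were seen. The members and lists were chosen with earlier results of these data known. Positions, 3′ UTRs and overlaps come from GENCODE M21, where all 10 matched by symbol.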

Additional observations from a re-analysis of the deposited data

How the results depend on the processing

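The count of the 10 genes called, 1 higher and 0 lower, was the same in all 16 alternatives, the replicate block included. Of all genes, DESeq2 called 982 higher and 681 lower and limma with quality weights 830 and 604. Total counts alone gave 392 higher and 1338 lower, with the median over all genes at −0.12. With each library left out in turn, 169 to 583 genes were higher and 42 to 384 lower, and 3 to 12 other pathway genes were higher. Acvr2a, near 0, turned positive under RLE scaling (0.00011) and with limma (0.029), and ranged from −0.057 to 0.052 with a library left out. Over the same fits Fstl3 ranged from −0.29 to 0.10, Acvr1c from −0.58 to 0.22 and Dcn from −0.11 to 0.056 (0.085 with limma), and the cause was not tested. With the replicate block the calls of Tgfbr2, Hamp2 and Igfbp1 changed (adjusted p = 0.0321, 0.00222 and 0.0544), and no other call of a gene chosen by the naming rule did. A filter of 1 CPM in 4 libraries kept 7 of the 10 genes, leaving out Inha, Fstl3 and Acvr1c, whose low counts limit what can be detected.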
